A study of Mus musculus with 5 samples.

Results

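Histone H3 lysine 14 acetylation (H3K14ac) was followed over 52 collagen and matrix genes of the mouse, out of 27179 genes counted. The members were taken by symbol alone: every collagen chain gene (Col, a number, the letter a and a number), 44 in all, and 8 other matrix genes, Dcn, Lum, Bgn, Sparc, Fn1, Fbn1, Postn and Vcan. The rule uses no measured value. CUT&Tag was used, where an antibody (abcam ab52946) tethers a transposase that cuts and tags DNA beside the mark. LSK cells, which carry Sca-1 and Kit but no lineage markers and include the blood stem and early progenitor cells of bone marrow, were sorted by flow cytometry from male C57BL/6 mice, whose age is not in the labels. The knockout group was Hbo1def/def; T/+ (2 libraries) and the control group Hbo1def/+; T/+ (2 libraries), so the controls also carried 1 def allele and both groups carried T/+. Both groups had Mx1-cre induced with poly(I:C); the Mx1 promoter answers to interferon and is not limited to blood cells, and poly(I:C) itself raises an interferon response. The labels do not say whether each library is a mouse of its own, and p-values therefore describe only how far these libraries differ, which can be technical spread. Another library, made with an HBO1 antibody, was not analysed here.

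HBO1, the product of Kat7, transfers acetyl groups to H3K14, a mark found at active start sites and, more thinly, over wide stretches of chromatin. Collagens are triple-helical proteins that form fibrils (types I, II, III, V and XI, for example), basement membrane networks (type IV) and beaded filaments (type VI), or sit on fibrils (the FACIT collagens) or in the cell membrane. Small proteoglycans such as decorin and lumican bind collagen fibrils, and fibronectin and fibrillin form fibres of their own. In bone marrow most of this matrix is known to be made by stromal and bone-forming cells; the reads here measure a histone mark and not expression.

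The read counts per library were lower in the knockout group over gene bodies, at 4723549 and 6031189, against 12386891 and 10572534 in controls. Upstream windows held 1065978 and 869859 counts in knockout libraries and 1164409 and 1078248 in control libraries, and downstream windows 677213 and 732658 in knockout libraries and 1260351 and 1142652 in controls. Counts over Kat7 as a whole cannot check the deletion, since they measure acetylation and not the deleted part. Gene body H3K14ac on Kat7 was 88.2 and 39.1 CPM in knockout libraries and 30.7 and 30.1 CPM in control libraries. CPM here are counts scaled to a library of 1e+06 with TMM, which assumes that most genes do not change. With no spike-in given in the sources used here, each fold below is relative to the other genes of its region class. A mark carried by fewer cells and a mark that is thinner in each cell cannot be told apart in such libraries.

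Genes are said to fall or rise where their H3K14ac in knockout cells, relative to control cells, passed the test. In the 5 kb upstream of the start, 20 of the 51 members tested fell in knockout cells and 0 rose, where 14.3% of all genes tested fell and 24.0% rose (edgeR quasi-likelihood test, adjusted p at or under 0.05). Both knockout libraries lay below both controls for 38 members, against 39.9% of all genes, and above them for 0, against 37.8%. The median log2 fold, knockout over control, was -0.99 for the members and -0.09 for all genes. Over gene bodies 38 of 51 fell and 0 rose, where 15.2% of all genes fell and 23.1% rose, and the medians were -0.90 and 0.02. There the knockout libraries lay below both controls for 48 members (39.4% of all genes), and the groups overlapped for 3. In the 5 kb downstream of the gene end 41 members were tested, 0 fell and 2 rose, where 2.29% of all genes fell and 10.8% rose. The knockout libraries lay below both controls for 23 of them (32.7% of all genes) and above both for 6 (29.9%). The downstream medians were -0.49 for the members and -0.03 for all genes. The DESeq2 Wald test called 0 members lower downstream, where it called 0.283% of all genes lower. These counts rest on all 4 libraries. Without knockout 1, knockout 2, control 1 or control 2, the members' median log2 fold was -0.65, -1.31, -0.80 and -1.17 upstream. Over gene bodies it was -0.69, -1.15, -0.76 and -1.08, with 1 library then standing for its group. Upstream few members or none then passed as falling, and far smaller shares of all genes did. Over gene bodies fewer passed as well, among the members and among all genes, except without knockout 2. The counts also rest on the scaling. Upstream 5 fell with pooled totals (1.97% of all genes) and 0 with scaling on receptor genes (0.168%). Over gene bodies 14 fell with library totals (4.62% of all genes), 17 with pooled totals (6.36%) and 2 with scaling on receptor genes (0.893%). With the replicate number of the labels as a block, 8 members fell upstream (3.79% of all genes) and 10 over gene bodies (4.15%). Col10a1 had 0 gene body counts in every library; its body lies wholly inside Nt5dc1, and Col11a2 was below the count filter upstream.

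**Figure D1:**
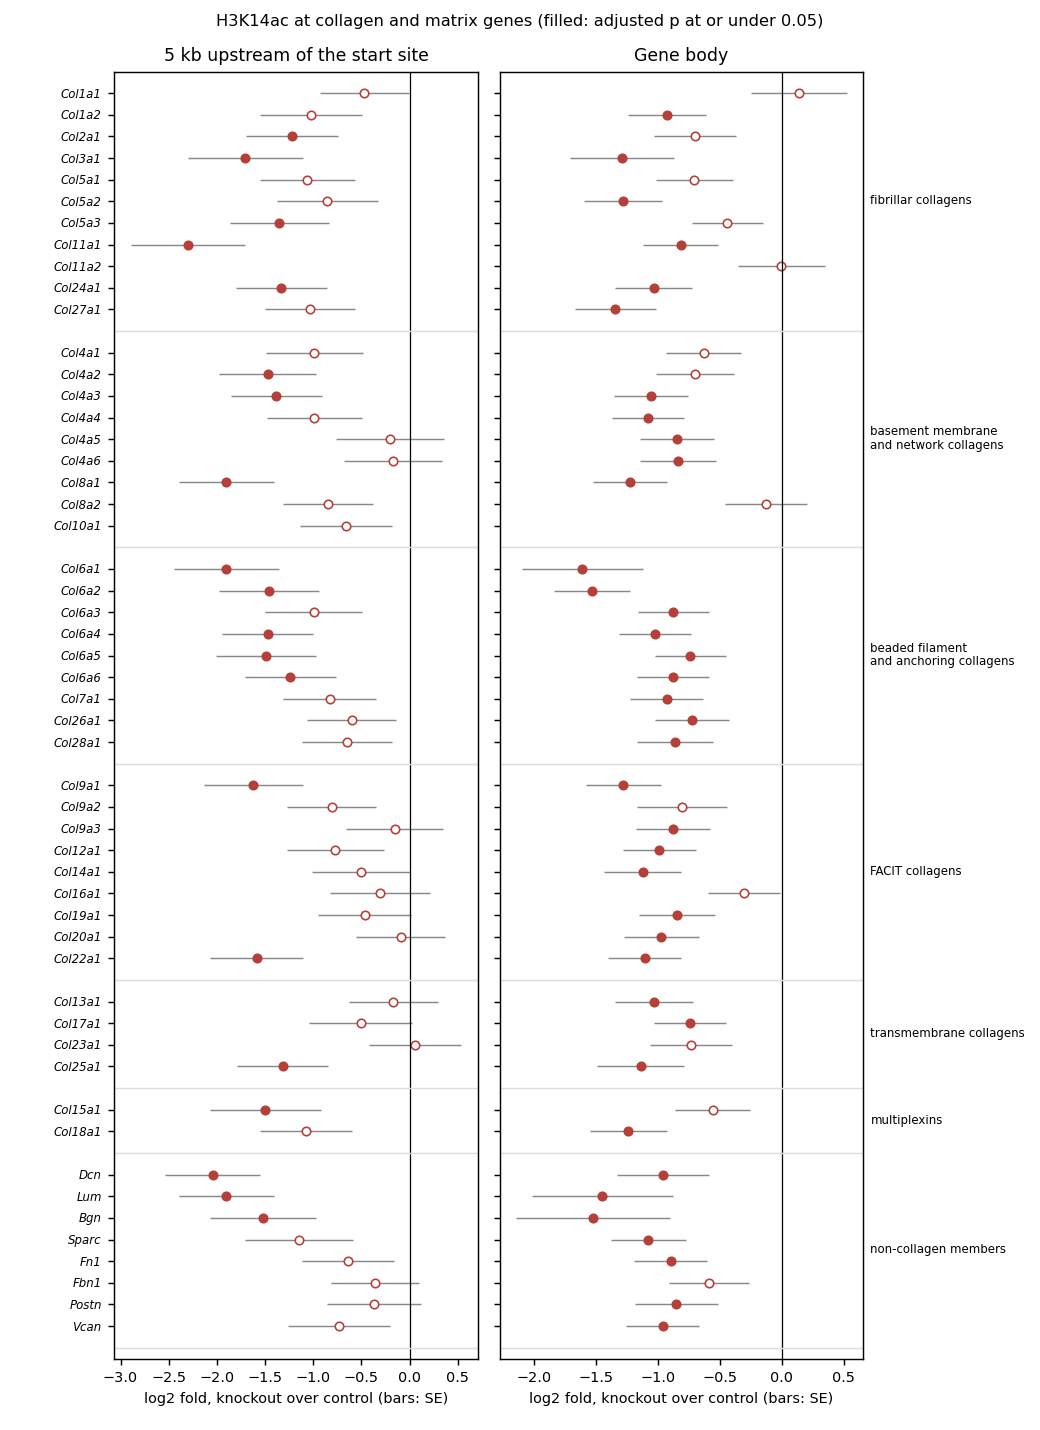
Log2 fold of H3K14ac, knockout over control, for each member in the upstream window (left) and the gene body (right), grouped by family; bars are 1 SE and filled points passed the test. With TMM scaling nearly every point lies left of 0: 50 of 51 in the upstream panel and 50 of 51 in the gene body panel. The median log2 fold of all genes tested was -0.09 upstream and 0.02 over gene bodies.

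The members' start sites differ widely in their CG dinucleotides, and several of the results below are read against that property. Windows of 300 bases around an annotated transcript start (250 before, 50 after) were available from RefSeq (GRCm38.p6) for 40 of the 52 genes, in 44 windows. The windows held between 0 and 37 CG steps, with a median of 10.5 for the members and 7 for all 32851 windows. Another measure was the observed over expected CG within 500 bp on each side of the gene start, the CpG ratio. By it the 52 members lay slightly below all genes, with medians of 0.437 and 0.457. The 6 start regions below are shown because they carry the contrasts described below: Col3a1 and Col11a1, whose upstream windows fell, Col4a1, which starts within a CG-rich stretch that it shares with Col4a2, Col23a1, whose own upstream window did not pass the test, and Mff and Phykpl, whose starts lie inside the downstream windows of Col4a3 and Col23a1. They are written 5′ to 3′ on the strand of the gene, with CG dinucleotides in capitals, and come from chr1:45311288-45311587 (Col3a1, plus strand), chr3:114030290-114030589 (Col11a1, plus), chr8:11312777-11313076 (Col4a1, minus), chr11:51289670-51289969 (Col23a1, plus), chr1:82724640-82724939 (Mff, plus) and chr11:51584531-51584830 (Phykpl, plus). For Col3a1 and Mff that transcript start is the gene start from which the regions were placed. For the others it lies inside the gene, by 61 bp (Col11a1), 63 bp (Col4a1), 127 bp (Phykpl) and 241 bp (Col23a1), so that nearly all of the Col23a1 window belongs to the gene body.
Col3a1: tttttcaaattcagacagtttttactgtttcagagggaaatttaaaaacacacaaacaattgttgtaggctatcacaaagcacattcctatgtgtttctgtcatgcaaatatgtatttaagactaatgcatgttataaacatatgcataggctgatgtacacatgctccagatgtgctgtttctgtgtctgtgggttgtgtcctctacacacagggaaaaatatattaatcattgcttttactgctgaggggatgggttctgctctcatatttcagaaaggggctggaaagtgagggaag
Col11a1: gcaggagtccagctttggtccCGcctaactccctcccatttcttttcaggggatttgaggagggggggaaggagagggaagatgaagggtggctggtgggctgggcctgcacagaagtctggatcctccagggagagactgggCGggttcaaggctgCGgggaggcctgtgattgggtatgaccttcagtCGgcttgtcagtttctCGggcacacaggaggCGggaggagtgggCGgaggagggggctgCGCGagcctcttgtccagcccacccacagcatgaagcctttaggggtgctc
Col4a1: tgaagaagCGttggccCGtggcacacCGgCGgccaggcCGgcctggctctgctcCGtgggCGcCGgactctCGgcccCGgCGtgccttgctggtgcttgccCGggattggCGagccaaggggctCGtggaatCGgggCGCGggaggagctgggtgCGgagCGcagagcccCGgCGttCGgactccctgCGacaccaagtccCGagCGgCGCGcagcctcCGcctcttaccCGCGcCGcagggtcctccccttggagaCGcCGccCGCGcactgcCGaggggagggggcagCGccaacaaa
Col23a1: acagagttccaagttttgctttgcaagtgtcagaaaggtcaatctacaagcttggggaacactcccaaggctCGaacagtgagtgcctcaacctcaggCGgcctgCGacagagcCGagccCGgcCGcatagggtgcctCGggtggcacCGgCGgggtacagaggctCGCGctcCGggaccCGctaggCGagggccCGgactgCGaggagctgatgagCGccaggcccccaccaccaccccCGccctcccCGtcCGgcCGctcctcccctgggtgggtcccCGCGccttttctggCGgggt
Mff: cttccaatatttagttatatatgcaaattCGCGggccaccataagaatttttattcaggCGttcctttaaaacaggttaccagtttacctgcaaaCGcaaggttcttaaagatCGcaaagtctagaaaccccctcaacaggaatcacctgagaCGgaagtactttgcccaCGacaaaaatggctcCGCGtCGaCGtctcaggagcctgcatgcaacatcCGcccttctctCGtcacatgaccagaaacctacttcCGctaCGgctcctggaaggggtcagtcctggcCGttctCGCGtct
Phykpl: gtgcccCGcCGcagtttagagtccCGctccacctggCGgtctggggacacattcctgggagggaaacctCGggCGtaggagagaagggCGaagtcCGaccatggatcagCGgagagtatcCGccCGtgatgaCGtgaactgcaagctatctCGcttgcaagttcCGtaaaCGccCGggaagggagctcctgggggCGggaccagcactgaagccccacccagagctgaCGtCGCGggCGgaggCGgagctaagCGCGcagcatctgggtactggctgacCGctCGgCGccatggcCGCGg
The Col3a1 window held 0 CG steps, Col11a1 held 9, Col4a1 37, Col23a1 24, Mff 18 and Phykpl 29. Counted on both strands, the letters GGGCGG, the core of the GC box, stood in 59.1% of the members' windows and in 35.7% of all windows. CCAAT stood in 34.1% of the members' windows and 37.4% of all, and TATAAA in 13.6% of each. These matches describe the letters only.

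The small proteoglycans held some of the largest falls. Dcn (decorin, chr10:97479500-97518163) had 13.6 and 18.8 CPM upstream in knockout libraries, against 90.3 and 44.7 CPM in control libraries. The groups did not overlap, and the log2 fold was -2.04 ± 0.49 (SE; edgeR adjusted p = 0.000402). Lum (lumican), its neighbour on the same strand 47337 bp away, had 14.8 and 13.3 CPM upstream in knockout libraries and 62.5 and 43.1 CPM in controls. Its log2 fold was -1.90 ± 0.49 (edgeR adjusted p = 0.00103). Over the bodies Dcn fell by 0.96 and Lum by 1.45 on the log2 scale, though Lum is short and drew only 1.29 and 2.53 CPM in knockout libraries against 6.52 and 4.16 in controls. Bgn (biglycan) had 23.9 and 58.7 CPM upstream in knockout libraries and 142 and 95.3 in controls, and fell there by 1.52 on the log2 scale and over its body also by 1.52. The body fold of Bgn (SE 0.62) rests on 5 and 7 reads in knockout libraries and 31 and 27 in controls.

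Of the remaining non-collagen genes 4 fell over the body and 0 upstream. Sparc (osteonectin, a collagen-binding protein of bone) had 29.0 and 38.3 CPM over its body in knockout libraries and 82.7 and 59.7 in controls, a log2 fold of -1.08 ± 0.30 (edgeR adjusted p = 0.0041). Its upstream value of -1.15 did not pass. Fn1 (fibronectin) had 54.7 and 85.7 CPM over its body in knockout libraries and 151 and 111 CPM in controls, a log2 fold of -0.90. Vcan (versican, a large proteoglycan) had 42.5 and 63.4 CPM in knockout libraries and 122 and 84.4 in controls, a log2 fold of -0.96, and Postn (periostin, a secreted partner of collagen) had -0.85. These 4 genes passed over the gene body and not upstream, where Fn1 had -0.64, Vcan -0.74 and Postn -0.37. Fbn1 (fibrillin-1, the core of microfibrils) passed in neither, with 265 and 351 CPM over its body in knockout libraries, 508 and 418 in controls, and folds of -0.59 (body) and -0.36 (upstream). In total 7 of the 8 non-collagen genes fell over the gene body and 3 of 8 upstream, where 15.2% and 14.3% of all genes fell.

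Among the 11 fibrillar collagens 6 fell over the gene body, and 5 of the 10 tested upstream did, where 15.2% and 14.3% of all genes fell. Col11a1 (a chain of type XI collagen, which sits inside cartilage fibrils) had the most negative upstream fold of all members, -2.30 ± 0.59 (edgeR adjusted p = 0.00098), with 7.96 and 3.32 CPM in knockout libraries and 35.6 and 20.7 CPM in controls. The knockout values rest on 7 and 3 reads. Col3a1 (type III collagen, of skin and vessel walls) had 4.55 and 7.76 CPM upstream in knockout libraries and 21.7 and 19.1 in controls, a log2 fold of -1.70. These knockout values rest on 4 and 7 reads. Over its body Col3a1 had 7.21 and 8.50 CPM in knockout libraries and 23.6 and 14.9 in controls, a log2 fold of -1.29 ± 0.42. Col5a2, which lies tail to tail with Col3a1 at a gap of 24624 bp and encodes a chain of type V collagen, also fell over its body, by 1.28 on the log2 scale.

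Of the 2 chains of type I collagen, the main protein of bone, Col1a2 fell over its body and Col1a1 did not pass. Col1a2 had 25.5 and 30.1 CPM in knockout libraries and 56.2 and 49.7 CPM in controls, a log2 fold of -0.93 ± 0.31 (edgeR adjusted p = 0.0153). Col1a1 had 19.8 and 15.2 CPM in knockout libraries and 16.9 and 14.8 in controls, so the groups overlapped, and its log2 fold was 0.14 ± 0.38; the difference between the 2 genes was not tested. Upstream neither passed, with -0.47 for Col1a1 and -1.02 for Col1a2. Col27a1, a fibrillar chain of cartilage, had 166 and 230 CPM over its body in knockout libraries and 614 and 391 in controls, a log2 fold of -1.34 ± 0.33 (edgeR adjusted p = 0.000987). Col11a2 did not pass over its body, with 25.5 and 22.4 CPM in knockout libraries and 25.9 and 22.1 in controls.

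The 6 chains of type IV collagen, the sheet of basement membranes, lie in 3 head-to-head pairs. Col4a1 and Col4a2 overlap by 85 bp at their starts and Col4a3 and Col4a4 by 114 bp, while Col4a5 and Col4a6 lie 1274 bp apart, so neighbouring upstream windows run into the partner gene. Over the bodies Col4a3, Col4a4, Col4a5 and Col4a6 fell, by 1.06, 1.08, 0.85 and 0.84 on the log2 scale. Col4a3 had 56.0 and 93.9 CPM in knockout libraries and 178 and 134 in controls, and Col4a4 had 55.5 and 81.0 in knockout libraries and 165 and 123 in controls. Col4a1, with 171 and 195 CPM in knockout libraries and 315 and 252 in controls, had -0.63, and Col4a2, with 228 and 227 in knockout libraries and 424 and 315 in controls, had -0.70; neither passed over the body. Upstream the order differed: Col4a2 (-1.47 ± 0.50) and Col4a3 (-1.38 ± 0.47) fell, while Col4a1 (-0.99), Col4a4 (-0.99), Col4a5 (-0.20) and Col4a6 (-0.17) did not pass. The upstream windows of Col4a5 and Col4a6 each hold the other's start and share 25.5% of their bases. Of the other network collagens Col8a1, a chain found beneath endothelium, fell in both classes, by 1.90 upstream and 1.22 over the body on the log2 scale, with 52.7 and 82.0 CPM over the body in knockout libraries and 187 and 128 in controls.

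The beaded filament and anchoring collagens were the only family, of the 7 fixed here, in which every tested gene fell over its body: 9 of 9, with 5 of 9 upstream. Of all genes 15.2% fell over the body and 14.3% upstream. The family differed from the other members by its calls and not by the size of its folds. Its median log2 fold over the body was -0.88, against -0.90 for all members. The grouping was drawn with earlier results known. Besides types VI and VII it holds Col28a1 and Col26a1, which passed narrowly over its body (edgeR adjusted p = 0.0473). Col6a2 (chr10:76595756-76623630) had 22.2 and 31.6 CPM over its body in knockout libraries and 89.1 and 66.8 CPM in control libraries. The groups did not overlap, and its log2 fold of -1.53 ± 0.31 had the smallest adjusted p of any member (edgeR, 7.78e-05). Col6a1, on the same strand 85161 bp away, had 4.07 and 4.18 CPM over its body in knockout libraries and 14.5 and 10.7 in controls, a log2 fold of -1.61 ± 0.49. Upstream it had 33.0 and 28.8 CPM in knockout libraries and 135 and 97.0 in controls, and fell by 1.90 on the log2 scale. Both genes encode chains of type VI collagen, which forms beaded filaments around cells. The neighbouring type VI genes Col6a6, Col6a5 and Col6a4, at gaps of 27823 and 27854 bp, fell in both classes. The gene of type VII collagen, the anchoring fibril of skin, had a body fold of -0.93 (Col7a1, 36.1 and 44.4 CPM in knockout libraries, 84.6 and 68.9 in controls).

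Of the 9 FACIT collagens 7 fell over the body and 2 upstream, where they were Col9a1 and Col22a1. Of all genes 15.2% fell over the body and 14.3% upstream. Col9a1, a chain of the type IX collagen of cartilage, had 28.7 and 34.3 CPM over its body in knockout libraries and 89.2 and 63.7 in controls, a log2 fold of -1.28 ± 0.30 (edgeR adjusted p = 0.000717). Upstream it fell by 1.62 on the log2 scale and Col22a1 by 1.59. The deposited length of Col22a1, 235752 bp, was more than 20% away from that of its RefSeq annotation, the only such case among the 52. Among the 4 transmembrane collagens 3 fell over the body and 1 upstream. With so few genes, the upstream counts of the FACIT and transmembrane collagens are near the share of all genes. Of the 2 multiplexins, collagens of basement membrane zones, Col18a1, whose fragment endostatin is known to act on vessels, fell over its body, by 1.24 on the log2 scale. Col15a1 fell upstream, by 1.50, with 34.1 and 62.0 CPM in knockout libraries and 153 and 119 in controls, and had -0.56 over its body, which did not pass.

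The downstream windows gave the only rises, at Col4a3 and Col23a1. The downstream window of Col4a3 had 117 and 71.2 CPM in knockout libraries and 12.5 and 20.7 CPM in control libraries, a log2 fold of 2.48 ± 0.40 (edgeR adjusted p = 0.000826). Downstream of Col23a1, a transmembrane collagen, there were 621 and 179 CPM in knockout libraries and 32.9 and 51.1 in controls, a log2 fold of 3.25 ± 0.90 (edgeR adjusted p = 0.0227). The groups did not overlap for either gene, and the 2 knockout libraries of Col23a1 stood far apart. The call at Col4a3 held with each library left out in turn, though a mean count of at least 50 removes this window. That at Col23a1 was lost with receptor scaling (edgeR adjusted p = 0.0625), a mean count of at least 50 (0.0539) and the replicate number as a block (0.125). It was also lost without control 1 and without control 2, with folds between 2.09 and 3.95 over the libraries left out. The same genes went the other way elsewhere: the body of Col4a3 fell by 1.06 on the log2 scale, and Col23a1 had 314 and 362 CPM over its body in knockout libraries, against 599 and 525 in controls, a log2 fold of -0.73 that did not pass. The upstream window of Col23a1 had 23.9 and 29.9 CPM in knockout libraries and 28.6 and 23.2 in controls.

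Both windows hold the start of another gene, whose sequences are printed above. Mff, a gene of mitochondrial fission, starts 2831 bp beyond the end of Col4a3, and the start of C430014B12Rik lies in that window too. Phykpl, the gene of a lyase that breaks down phosphohydroxylysine, starts 729 bp beyond the end of Col23a1. Phykpl itself had 316 and 134 CPM upstream in knockout libraries and 47.7 and 56.3 in controls, a log2 fold of 2.11 ± 0.68 (edgeR adjusted p = 0.00862), and over its body 2.25 ± 0.43. Mff had 16.8 and 17.9 CPM over its body in knockout libraries and 6.32 and 10.4 in controls, a log2 fold of 1.05 ± 0.42 (edgeR adjusted p = 0.0405); upstream it had 1.19, which did not pass. The CpG ratio of the start site, observed over expected CG within 500 bp on each side, was 0.872 for Mff and 0.713 for Phykpl. Col7a1 (Ucn2 and Pfkfb4), Col6a3 (Gm41918) and Col22a1 (LOC115486001 and Gm2999) also have another gene's start in their downstream windows, and did not pass there, with log2 folds of -0.90, -0.53 and 0.12. How the reads of these starts enter the members' windows was not tested.

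**Figure D2:**
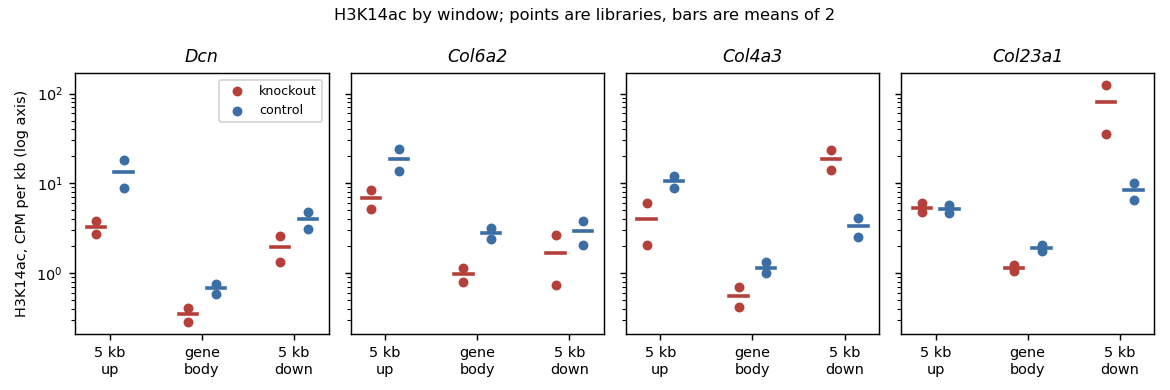
H3K14ac in CPM per kb (log axis) in the 3 windows of Dcn, Col6a2, Col4a3 and Col23a1; points are libraries (knockout left of control) and bars are means of 2. The knockout points lie below the controls upstream and over the body of Dcn, Col6a2 and Col4a3, and above them only downstream of Col4a3 and Col23a1.

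Downstream windows that overlap those of other genes held fewer counts. Of the 52 downstream windows 5 shared at least 90% of their bases with the same window of another gene, and these had a median of 16 counts over the 4 libraries. A further 10 shared 10 to 90%, with a median of 35, and the 37 that shared less than 10% had a median of 168. The downstream window of Col4a2 had 0 counts in all libraries. Upstream, 4 windows shared 10% or more (Col5a3, Col11a2, Col4a5 and Col4a6). The members that share less than 10% of a window were also counted alone. Of these 19 of 48 tested fell upstream, 37 of 50 over the gene body and 0 of 36 downstream, where 2 rose. Of all genes, without this limit, 14.3%, 15.2% and 2.29% fell, and 10.8% rose downstream. The share of all genes under the same limit was not counted.

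Levels between genes were compared per kb of gene body. The median of the 51 members with counts was 0.712 and 0.914 CPM per kb in knockout libraries and 1.57 and 1.35 CPM per kb in control libraries, while the median of all gene bodies tested was 0.930 and 0.940 in knockout libraries and 0.851 and 0.853 in controls. The median percentile of the members among all gene bodies, a rank that no scaling of a library can move, was 33.6 and 48.0 in the knockout libraries and 72.9 and 72.1 in the control libraries. In those libraries 17 and 25 of the 51 members lay above the median gene body in knockout cells, against 44 and 37 in control cells. Olfactory and vomeronasal receptor genes, 1485 genes that blood cells are not known to use, had medians of 0.375 and 0.466 CPM per kb in knockout libraries and 0.526 and 0.528 in controls. The ratio of summed gene body counts, members over receptor genes, was 2.61 ± 0.05 in knockout libraries and 3.10 ± 0.15 in controls (SD, n = 2 each), and upstream it was 0.0779 ± 0.0006 in knockout libraries and 0.0843 ± 0.0042 in controls. Downstream it was 0.11 and 0.0747 in knockout libraries and 0.0758 and 0.0744 in controls, and the groups overlapped. The Col23a1 window, which holds the start of Phykpl, gave 333 of the members' 1259 downstream counts in knockout 1 and 136 of 1357 in knockout 2. In controls it gave 42 of 2883 and 64 of 2476, so the higher ratio of knockout 1 rests in large part on this window.

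The members spanned an 18-fold range of control density. The highest in control libraries were Col27a1 (1.66 CPM per kb in knockout and 4.20 in control libraries), Col9a3 (1.57 in knockout and 2.88 in control libraries) and Col6a2 (0.973 in knockout and 2.82 in control libraries). The lowest were Col4a5 (0.251 in knockout and 0.452 in control libraries), Col11a1 (0.177 in knockout and 0.313 in control libraries) and Bgn (0.0800 in knockout and 0.233 in control libraries). Genes of this group are long: the median gene body was 105 kb, against 17.6 kb for all genes tested.

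**Figure D3:**
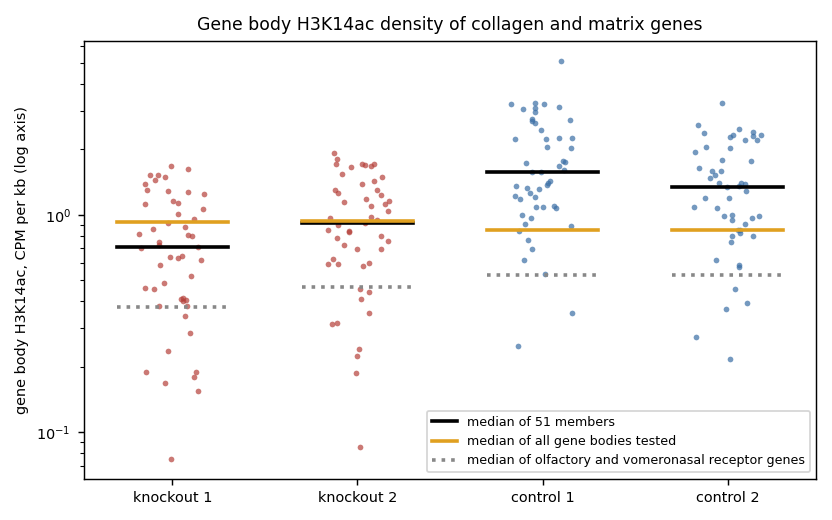
Gene body H3K14ac of the 51 members with counts in CPM per kb (log axis), by library, with the medians of the members, of all gene bodies tested and of the receptor genes. The members' median lies below that of all genes in both knockout libraries (0.712 and 0.914) and above it in both controls (1.57 and 1.35).

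The counts of the members lay mostly within the gene body, at 91.8 ± 1.14% in knockout libraries and 93.7 ± 0.24% in control libraries (SD, n = 2 each). Upstream windows took 3.96 ± 0.02% in knockout libraries and 3.54 ± 0.06% in controls, and downstream windows 4.28 ± 1.17% in knockout libraries and 2.80 ± 0.18% in controls. The downstream share includes the Col23a1 window with the start of Phykpl, which gave 333 of 1259 counts in knockout 1 and 136 of 1357 in knockout 2. For all genes the upstream share was 13.9 ± 3.60% in knockout libraries and 8.15 ± 0.40% in controls, a gap of 5.79 percentage points, against 0.42 for the members. No test was run on these shares.

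Across all genes, taken in steps of 0.1 of the CpG ratio of the start site, the median log2 fold climbed with the ratio to 1.25 upstream (ratios of 0.9 to 1.0) and 0.74 over gene bodies (0.8 to 0.9). In the steps from there to a ratio of 1.1 it was somewhat lower, at 1.21 upstream and at 0.71 and 0.52 over gene bodies. The last step (1.1 to 1.2, 38 genes) had the highest medians, 1.615 upstream and 0.821 over gene bodies. Of the members 43 had a ratio under 0.6 and 9 had 0.6 or more, while 39.9% of all genes had 0.6 or more. Among genes of 0.6 or more, 3.14% fell upstream and 43.4% rose, with a median log2 fold of 0.95; the 9 members there had a median of -0.99, 2 of them fell (Col2a1 and Col4a2) and 0 rose. Over gene bodies of that class 8.32% of all genes fell and 36.7% rose, with a median of 0.62, whereas 3 of the 9 members fell, 0 rose and their median was -0.70. Below 0.6, 22.2% of all genes and 18 of 42 members fell upstream, and 21.3% of all genes and 35 of 42 members fell over the body. Among genes that were also at least 20 kb long, 32 of 37 members (86.5%) fell over the body, against 32.2% of the 4475 other genes. Upstream the shares that fell were 41.7% of such members and 22.2% of such other genes. The median log2 folds were -0.93 for such members and -0.49 for such other genes over the body, and -1.01 and -0.62 upstream. The limit of 20 kb is a floor only, so the 2 sets were not matched in length or in read number. Within the members the rank correlation of the fold with the CpG ratio was 0.281 upstream and 0.385 over the body (Spearman, 51 genes that share 4 libraries). That between upstream and body folds was 0.401 over 50 genes.

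**Figure D4:**
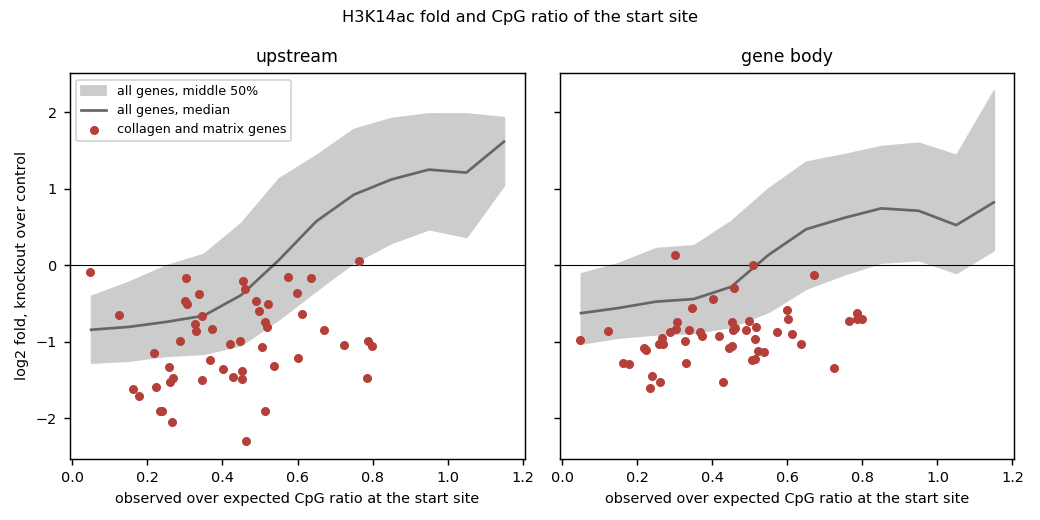
Log2 fold, knockout over control, against the CpG ratio of the start site (observed over expected) for the members (points) and all genes (line: median; band: middle 50%), upstream and over gene bodies. The line for all genes crosses 0 between ratios of 0.5 and 0.6, while at 0.6 and more the members' medians are -0.99 (upstream) and -0.70 (gene body).

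The size of the folds and the calls depended on the scaling. A scaling multiplies a whole library by 1 factor and so moves the folds of the members and of all other genes nearly alike; the distance between their medians is therefore set by construction to change little, and its values under the scalings are a description only. Scaled on the receptor genes, the median log2 fold of all genes was 0.83 upstream, 0.66 over gene bodies and 0.27 downstream, and that of the members was -0.11, -0.26 and -0.19. The fold was then below 0 for 28 of 51 members upstream and 43 of 51 over gene bodies. On that scale 0 members fell upstream (0.168% of all genes fell, 31.0% rose) and 2 over the gene body (0.893% and 20.7%), namely Col6a2 (-0.89) and Col27a1 (-0.69). The members' median minus that of all genes was -0.90 upstream and -0.92 over gene bodies with TMM, and -0.94 and -0.93 with receptor scaling. Over all 5 scalings this distance lay between -0.94 and -0.87 upstream and between -0.93 and -0.89 over gene bodies. Leaving out a library moved it to between -1.23 and -0.67 upstream and between -1.18 and -0.74 over gene bodies.

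**Figure D5:**
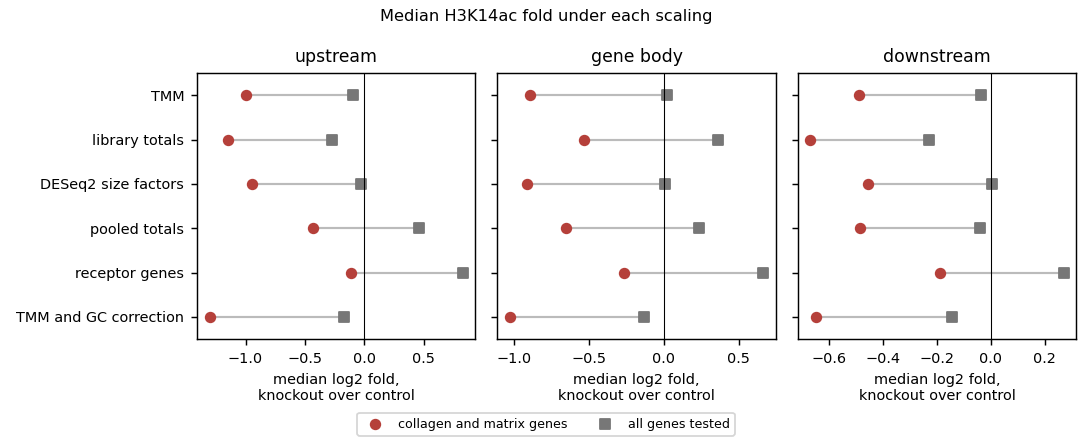
Median log2 fold, knockout over control, of the members (circles) and of all genes tested (squares) under 5 scalings and a GC correction, by region class. The 2 medians shift together under the 5 scalings, as 1 factor per library makes them do, with a distance between -0.94 and -0.87 upstream and between -0.93 and -0.89 over gene bodies.

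Genes that make, bind or cut the same matrix were counted from 4 lists. Of all genes tested 14.3% fell and 24.0% rose upstream, 15.2% and 23.1% did so over gene bodies, and 2.29% and 10.8% downstream. Of the collagen-modifying and secretion genes 2 fell and 5 rose of 26 tested upstream, 7 fell and 4 rose of 27 over the body, and 0 fell and 4 rose of 28 downstream. The shares that rose, 19.2%, 14.8% and 14.3%, lay below those of all genes upstream and over the body and near that of all genes downstream. The share that fell over the body, 25.9%, lay above that of all genes, with a median log2 fold of -0.51. Those that fell there included Plod2 (-1.07), Pcolce2 (-1.04) and Adamts2 (-1.01), and the 2 that fell upstream were Loxl1 (-1.44) and Lox (-1.32). P4hb, a subunit of the prolyl hydroxylase of procollagen, had 147 and 88.6 CPM upstream in knockout libraries and 12.2 and 14.1 in controls. Its log2 fold there was 3.15 ± 0.56 (edgeR adjusted p = 1.07e-06), and it had 0 gene body counts in every library. Sec23a, a coat protein of the vesicles that carry procollagen, rose upstream (2.08), as did Colgalt1, a collagen galactosyltransferase (1.91 upstream, 1.58 over the body, 3.05 downstream). Mia3, a receptor that loads procollagen into vesicles, rose over its body (1.99), and so did the lysyl hydroxylase gene Plod3 (1.95). Downstream of Pcolce, an enhancer of procollagen processing, the fold was 3.80, and downstream of Loxl3, a lysyl oxidase relative, 2.96. In this list 19 of 28 start sites had a CpG ratio of 0.6 or more, against 9 of 52 in the collagen and matrix genes.

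Among the collagen and matrix receptors 1 fell and 1 rose of 13 tested upstream, 3 fell and 1 rose of 14 over the body, and 0 fell and 1 rose of 14 downstream. With so few genes, the shares that fell, 7.69% upstream and 21.4% over the body, are near those of all genes. Ddr2, a receptor kinase for fibrillar collagen, had 89.0 and 143 CPM over its body in knockout libraries and 280 and 206 in controls, a log2 fold of -1.06 ± 0.30, and fell upstream by 1.38 on the log2 scale, while the window downstream of it rose (1.62). Itgb1, the common integrin beta chain, rose upstream (1.23), Itga11, the alpha chain of a collagen-binding integrin, fell over its body (-0.85; -1.15 upstream did not pass), and the hyaluronan receptor gene Cd44 rose over its body (0.89). Of the proteases and inhibitors 3 of 15 fell upstream (Mmp16, -1.91; Timp4, -1.49; Mmp13, -1.43), 3 of 12 over the body (Mmp3, -1.27; Mmp16, -1.21; Mmp15, -0.86) and 0 of 15 downstream, and the only rises were 2 downstream (Mmp2, 2.98; Mmp11, 1.91). The falls, 3 of 15 upstream and 3 of 12 over the body, are also near the shares of all genes at this number of genes.

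The laminins, nidogens and other matrix glycoproteins form basement membranes and other matrix beside the collagens. Of 31 tested upstream 12 fell and 1 rose, of 30 gene bodies 20 fell and 0 rose, and of 30 downstream windows 2 fell and 2 rose. The shares that fell were 38.7%, 66.7% and 6.67%. Thbs2 (thrombospondin 2) had 28.7 and 35.3 CPM over its body in knockout libraries and 122 and 75.7 in controls, a log2 fold of -1.62 ± 0.30 (edgeR adjusted p = 2.35e-05). Nid1 (nidogen, which links laminin to type IV collagen) fell by 2.24 upstream and 1.36 over the body on the log2 scale, Lama1 by 1.46 over the body and Lama2 by 1.82 upstream. The 1 rise was upstream of Agrn (agrin), with 40.9 and 14.4 CPM in knockout libraries and 0.868 and 0.829 in controls, where the reads numbered 36 and 13 in knockout libraries and 1 and 1 in controls. Downstream of Lamb2 and Lama5 the folds were 3.22 and 1.84, and downstream of Lamb3 the fold was -1.44, all past the threshold.

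Marker genes of LSK cells and of other cell types were counted too, where 15.2% of all gene bodies fell and 23.1% rose. Of 8 stromal markers 4 fell (Pdgfra, Lepr, Alpl and Prrx1) and 1 rose (Runx2) over the body, with summed levels of 759 and 618 CPM in knockout libraries and 754 and 688 in controls, so the groups overlapped. Of 7 endothelial markers 2 fell (Cdh5 and Tek), with sums of 630 and 757 CPM in knockout libraries and 1069 and 878 in controls. Neither list passed for any gene upstream (0 of 8 and 0 of 7), where 14.3% of all genes fell and 24.0% rose. No marker of either list was at 0. Of 9 LSK defining genes 0 fell and 3 rose (Flt3, Gata2 and Runx1) over the body, with sums of 1951 and 1733 CPM in knockout libraries and 1963 and 1755 in controls. Of 10 mature blood genes tested over the body 1 fell and 1 rose, with sums of 221 and 186 CPM in knockout libraries and 220 and 195 in controls; Ms4a1 and Hbb-bs had 0 counts. The part of other cells in the members' falls was not tested.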

How the data were processed

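H3K14ac CUT&Tag read counts of 2 knockout and 2 control libraries were used. The authors deposited whole-number counts per Entrez gene over 3 region classes (5 kb upstream, gene body, 5 kb downstream), per the file headers, with a gene length in bp as another value column of the authors. The submitters' processing notes name featureCounts and mm10; for the aligner, read filters, duplicates, annotation release and a spike-in, nothing is given in the sources used here. Series tables and library files held the same values (0 differing). Depth per library stands in the results, and PCR copies are not independent molecules, so precision is taken from the spread between libraries: the median SE of a member's log2 fold was 0.49 upstream, 0.31 over gene bodies and 0.39 downstream.

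Members were found by symbol through RefSeq GRCm38.p6, whose table named 25275 of 27179 genes; all 52 symbols that fit the rule had counts. Members, lists and tests were chosen with earlier results of these data known. Each region class was tested over all its genes by edgeR 4.0.16, with its quasi-likelihood F-test (R 4.3.3; filterByExpr with a minimum count of 10 and a minimum total of 15; TMM; no covariate), with Benjamini-Hochberg adjustment over the class at 0.05. The SE is the log2 fold divided by the square root of F. This step was first tested on simulated counts. Named genes were the 8 non-collagen members and the chains of types I, III and IV. Up to 10 called members by size of fold in each direction and class were added. So were the 3 highest and 3 lowest in control density, and the 3 smallest p of each pathway list and class. Further members of a called family, called marker genes and further collagen-modifying genes that fell were named after their values were seen. Of the pathway genes chosen by smallest p, Itga1, Lair1 and Ctsk, none past the threshold and all downstream, are not described further.

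Alternatives were library totals, DESeq2 1.42.0 size factors and Wald test, totals pooled over region classes, receptor gene scaling, a GC correction (loess span 0.3), a filter at a mean count of 50 or none, a replicate block and each library left out; a crossed block and the members with under 10% of a window shared were added after seeing the data. Python 3.11.15, pandas 2.3.3, numpy 2.4.6 and matplotlib 3.10.9 made the tables and plots.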

Additional observations from a re-analysis of the deposited data

How the results depend on the processing

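Of 1360 values of 100 named gene and region pairs under the alternatives, 981 kept their direction and their side of the threshold, 323 kept the direction and lost the call, 30 gained one and 26 changed sign. The members that fell upstream numbered 5 with pooled totals, 0 with receptor scaling, 11 with the DESeq2 Wald test and 7 with a mean count of at least 50, where 16 members were tested. Over gene bodies they numbered 14 with library totals, 17 with pooled totals and 2 with receptor scaling. In each of these settings a smaller share of all genes fell as well. Downstream 1 fell with library totals and 5 with the GC correction; the rises numbered 1 with receptor scaling and 0 with a mean count of at least 50, where Col4a3 was not tested. With 1 library left out, falls numbered 0 to 3 (upstream), 0 to 39 (gene bodies) and 0 to 1 (downstream), and downstream rises 1 to 3. Apart from those with the replicate block or the crossed block, given below, the other counts of members stayed within 1.5 times the reported ones. The counts of members that rose upstream and over gene bodies were 0 under every alternative run. The causes were not tested.

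The labels do not say that a replicate number marks a shared mouse, batch or day, although the serial numbers in the column names lie closer between same-numbered libraries than within a group. What these serials record is not given in the sources used here. Same-numbered libraries deviated in opposite directions (correlations of -0.28 upstream, -0.36 over gene bodies and -0.22 downstream). With 2 libraries a group the deviations of a gene are equal and opposite, so this compares only 1 difference per group. It cannot decide whether the libraries were handled as pairs. The replicate number was left out of the main fit. With the replicate number as a block, which leaves 1 residual degree of freedom, 8 members fell upstream, 10 over gene bodies and 0 downstream, and 1 rose downstream (Col4a3; the rise downstream of Col23a1 was lost, edgeR adjusted p = 0.125). With the crossed block 30, 46 and 6 fell and 0, 0 and 2 rose.

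Signs changed in values that had not passed. With receptor scaling the log2 folds were 0.45 (Col1a1), 0.81 (Col4a5), 0.67 (Col4a6), 0.58 (Fbn1), 0.30 (Fn1), 0.56 (Postn) and 0.17 (Vcan) upstream, 0.03 (Col4a1) and 0.06 (Fbn1) over gene bodies and 0.06 (Fn1) downstream. With pooled totals they were 0.08 (Col1a1), 0.39 (Col4a5), 0.37 (Col4a6), 0.21 (Fbn1) and 0.18 (Postn) upstream. With the GC correction they were 0.28 (Col4a5) and 0.24 (Col4a6) upstream, -0.46 (Col1a1) over the body and -0.21 (Bgn) downstream, and with library totals -0.10 (Bgn) downstream. With a library left out, Col4a5 lay between -0.98 and 0.48 and Col4a6 between -0.95 and 0.43 upstream, Col1a1 between -0.03 and 0.37 over its body, and Bgn between -0.24 and 0.50, Fn1 between -0.73 and 0.09 and Lum between -0.90 and 0.02 downstream. With 2 libraries a group and few reads per upstream window, differences smaller than about 1 on the log2 scale were seldom called there.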
